A study of Mus musculus with 23 samples.

Results

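Netrins, Slits and Roundabout (Robo) receptors are families of guidance genes, described here in mammary tumors in which IL-38, a member of the IL-1 cytokine family, was inhibited. The 10 members, taken by gene symbol out of 47643 gene identifiers, are the netrins Ntn1 and Ntn4, their receptors Neo1, Unc5b and Unc5c, the ligands Slit2 and Slit3, and the receptors Robo1, Robo2 and Robo4. All 10 had reads in all 23 libraries, 4 to 1554 reads each, and all passed the filter on low values in each comparison. The list was drawn up because Ntn1 had been seen higher with IL-38 inhibited, so the values of Ntn1 in the comparisons of IL-38 inhibition are a description and carry no test. The IL-38 knockout values among them are also the controls of γδ TCR blockade, so Ntn1 carries no test there either.

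The tumors came from female mice that carry the polyoma virus middle T oncogene (PyMT) as a mammary carcinoma transgene on a C57BL/6 background; the promoter of the transgene was not given in the sources used here. In the neutralization experiment, PyMT WT mice received 100 µg of a human IgG1 isotype control (n = 5) or of the anti-IL-38 antibody e04 (n = 6) each week over 5 weeks, starting when the first tumor measured 0.6 cm. In the genotype experiment, mice of 13 weeks of age were treated for 5 weeks with 500 µg of antibody first and 200 µg thereafter. PyMT WT mice received IgG (WT + IgG, n = 4), and PyMT IL-38 KO mice, from a C57BL/6N knockout strain crossed with PyMT, received IgG (IL-38 KO + IgG, n = 4) or an antibody to the γδ T-cell receptor (IL-38 KO + anti-γδTCR, n = 4). RNA of dissociated tumors was read by 3′ mRNA sequencing, which counts transcript ends, so values were not divided by gene length and levels are compared within a gene only. The labels do not say that each library is a separate mouse, so p-values measure the spread between libraries. The column name of IL-38 KO + anti-γδTCR 3 carries the mark "rep", whose meaning is not given.

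Netrins are secreted proteins related to laminins. They act through DCC, neogenin and UNC5 receptors, attracting or repelling growing axons. Slits are large secreted ligands that bind Robo receptors and mostly repel. Outside the nervous system both families take part in mammary duct structure, vessel growth and cell adhesion, and UNC5 receptors are known as dependence receptors, which can signal cell death when no netrin is bound.

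The values are normalized counts of the deposited tables, 1 of 19 libraries for both IL-38 experiments and 1 of 8 for γδ TCR blockade, and are not comparable between these tables. Reads scaled to the total of each library (CPM) were used across all 23 libraries. Il1f10, which encodes IL-38, had 0 reads in all 23 libraries, so the genotype could not be checked on it. The 4 IL-38 KO + anti-γδTCR libraries and IL-38 KO + IgG 4 were the 5 with the fewest reads, 6.27 to 8.79 M against 10.1 to 15.9 M in the other 18, and the transcript Gm42418 took 11.3% to 20.1% of their reads against 2.62% to 5.70%. Luminal epithelial markers summed to 1734 to 4449 CPM and fibroblast markers to 1245 to 9801 CPM, and no gene of the 11 marker lists was at 0 throughout. In bulk tumor RNA, fewer cells of a type and less RNA per cell cannot be told apart.

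Of the 10 members, 9 have entries in a RefSeq table of promoters on GRCm38.p6, all but Ntn1. The 250 bases upstream of the start of Ntn4 and Slit3, both lowest in the same tumor, isotype control 5, and of Robo4, a receptor of blood vessels, are shown 5′ to 3′ in the direction of the gene. They lie at chr10:93640799-93641048 (+ strand), chr11:35121206-35121455 (+ strand) and chr9:37401722-37401971 (+ strand), just upstream of the annotated start. Capitals mark GGGCGG on either strand, the core of the GC box bound by Sp and KLF factors.

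Ntn4: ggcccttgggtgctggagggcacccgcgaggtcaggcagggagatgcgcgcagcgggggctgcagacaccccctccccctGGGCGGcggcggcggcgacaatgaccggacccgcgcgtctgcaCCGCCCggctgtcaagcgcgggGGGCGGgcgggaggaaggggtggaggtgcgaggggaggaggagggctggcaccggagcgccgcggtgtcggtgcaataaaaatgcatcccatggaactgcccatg
Slit3: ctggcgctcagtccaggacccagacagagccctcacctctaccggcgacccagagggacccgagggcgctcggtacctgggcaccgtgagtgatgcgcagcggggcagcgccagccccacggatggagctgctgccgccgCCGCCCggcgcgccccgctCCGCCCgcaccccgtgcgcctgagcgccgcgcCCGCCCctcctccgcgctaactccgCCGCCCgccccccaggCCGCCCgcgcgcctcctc
Robo4: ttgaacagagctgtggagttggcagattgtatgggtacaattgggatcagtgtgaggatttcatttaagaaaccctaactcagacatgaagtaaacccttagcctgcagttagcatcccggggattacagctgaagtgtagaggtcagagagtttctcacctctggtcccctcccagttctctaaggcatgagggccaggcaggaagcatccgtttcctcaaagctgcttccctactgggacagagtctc

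GGGCGG was found 3 times in the window of Ntn4, 5 times in that of Slit3 and 0 times in that of Robo4, and 32.7% of the 32851 promoter windows of this length in the table hold it. The windows of Ntn4 and Slit3 hold 26 and 35 CpG dinucleotides and that of Robo4 holds 2, where the median of all windows is 6 and the quartiles are 2 and 16. GATAA, the core letters of GATA sites, was searched on both strands as well because Gata3 was among the genes most like Slit3. It was in neither the window of Ntn4 nor that of Slit3, and 22.6% of all windows hold it.

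Ntn1 (ENSMUSG00000020902), the netrin for which the family was chosen, was higher in tumors with IL-38 inhibited than in controls. Its normalized counts were 100.1, 64.4, 106, 163 and 113 in isotype control libraries 1 to 5 and ranged from 143 to 311 (median 174) in the 6 anti-IL-38 libraries. They were 159, 80.1, 153 and 125 in WT + IgG and 239, 226, 216 and 298 in IL-38 KO + IgG. All 4 KO libraries lay above all 4 WT libraries, while anti-IL-38 and isotype control overlapped, with 4 of 6 antibody libraries above the highest control. Over both experiments the 10 inhibited libraries averaged 212 ± 57.5 (SD) and the 9 control libraries 118 ± 35.0 (SD), and 8 of the 10 libraries exceeded every control. The fitted log2 difference was 0.85 ± 0.19 (SE) over both experiments, 0.80 ± 0.25 (SE) for the antibody and 0.95 ± 0.23 (SE) for the knockout. These are the values for which Ntn1 was chosen.

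**Figure D1:**
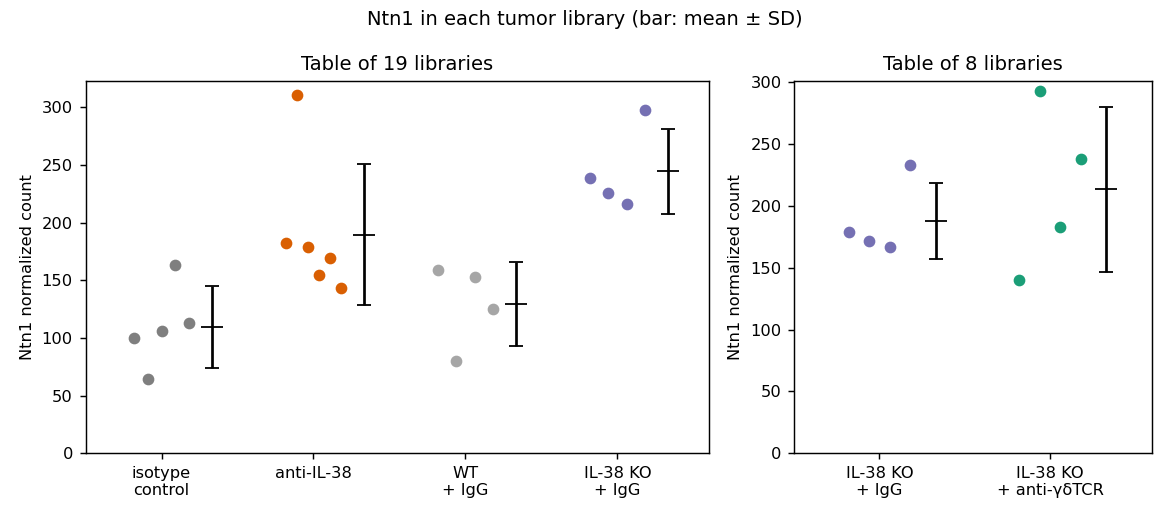
Normalized counts of Ntn1, 1 point per tumor library, with the mean ± SD of each group beside the points; the left panel holds the table of 19 libraries and the right panel that of 8, each with its own scale. The 4 IL-38 KO + IgG libraries lie between 216 and 297.6 on the left, above all 4 WT + IgG libraries, and both groups on the right overlap.

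The antibody and knockout estimates of Ntn1 differed by -0.15 ± 0.36 (SE), which is built from the same values and is likewise given without a test.

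Across all 5 groups on the CPM scale, Ntn1 was lowest in isotype control tumors, at 8.70 ± 2.93 CPM (SD, n = 5), followed by WT + IgG at 11.1 ± 3.27 (n = 4) and anti-IL-38 at 14.5 ± 4.68 (n = 6). It was highest in IL-38 KO + IgG at 20.5 ± 2.79 (n = 4) and IL-38 KO + anti-γδTCR at 20.98 ± 7.62 (n = 4). Each group overlapped its neighbour in this order, with ranges of 5.05 to 13.2, 6.63 to 13.9, 11.2 to 23.8, 18.01 to 24.5 and 13.4 to 29.9 CPM. The 5 genes whose log2 values followed Ntn1 most closely over 19 libraries were Adcy6 (Pearson r = 0.86), Large2 (0.84), Fat1 (0.84), Tap2 (0.83) and Dll1 (0.83), and after the 4 group means were removed these correlations were 0.64 to 0.72. Adcy6 encodes an adenylyl cyclase, Fat1 an atypical cadherin and Dll1 a Notch ligand.

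Of the other 9 members, none passed an adjusted p of 0.05 between tumors with IL-38 inhibited and controls, by limma on log2(normalized count + 1) with Benjamini-Hochberg adjustment. Of 16352 genes tested, 0% passed. At an unadjusted p under 0.05 the count was 0 of 9, against 10.5% of all genes. edgeR and DESeq2 on the reads recovered from the tables also called none of the 9, against 0.00612% and 0.428% of all genes. No gene had 10 inhibited libraries all on 1 side of 9 controls (0%). The 9 estimates ran from 0.04 for Robo2 to 0.47 for Ntn4 and their median was 0.30, against a median of 0.00471 for all genes. Without isotype control 5 those of Ntn4, Slit3, Slit2 and Robo4 were 0.0123, 0.04, 0.09 and 0.06, and the highest of the 9 was that of Robo1 (0.50). All 9 were above 0 with every library, but that of Robo2 fell below 0 when any of 8 single libraries was left out, such as isotype control 1 (-0.12), and that of Unc5c without isotype control 3 (-0.05) and in both tests on reads (-0.10 each).

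Among the netrin receptors, Unc5b (ENSMUSG00000020099) came nearest. This receptor of netrins is best known from blood vessels and from p53 signalling. Its normalized counts were 307, 197, 546, 405 and 229.7 in isotype control libraries 1 to 5 and ranged from 285 to 697 (median 322) in anti-IL-38. They were 273, 190.4, 438 and 371 in WT + IgG and 534, 494, 430.4 and 389 in IL-38 KO + IgG. The KO libraries lay in the upper part of the WT range or above it, and the antibody groups overlapped widely. The log2 difference was 0.43 ± 0.21 (SE, adjusted p = 0.476) over both experiments.

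Neo1 (ENSMUSG00000032340) encodes neogenin, the netrin receptor that also binds repulsive guidance molecules. It was at 519, 544, 920.3, 880.0 and 764 normalized counts in isotype control and ranged from 482 to 1219 (median 771) in anti-IL-38. In WT + IgG it was at 596, 390.2, 642 and 565 and in IL-38 KO + IgG at 623, 916, 822 and 821. Of the 4 KO libraries, 3 exceeded all WT libraries, and the antibody groups overlapped throughout. The log2 difference was 0.30 ± 0.17 (SE, adjusted p = 0.525) over both experiments.

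Unc5c (ENSMUSG00000059921), the other UNC5 receptor among the members, was low and set apart by 1 tumor. Its normalized counts were 34.0, 22.1, 12.5, 19.4 and 103 in isotype control and ranged from 24.8 to 45.0 (median 35.0) in anti-IL-38. They were 30.9, 30.2, 18.8 and 48.9 in WT + IgG and 53.3, 25.2, 21.9 and 21.2 in IL-38 KO + IgG. Isotype control 5 and IL-38 KO + IgG 1 stood above the rest of their groups.

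That same tumor, isotype control 5, was the lowest of all 19 for Ntn4 and Slit3. It was also the lowest of all 19 for the scores (mean z score of a marker list) of fibroblasts (-2.01), luminal epithelium (-1.50), endothelium (-1.09) and mural cells (-1.09), and the part of this in the members' values was not tested. Ntn4 (ENSMUSG00000020019) encodes a netrin of basement membranes that binds laminin. Its normalized counts were 318, 404, 1115, 623 and 35.3 in isotype control libraries 1 to 5 and ranged from 400.1 to 1096 (median 597) in anti-IL-38. They were 661, 613, 818 and 882 in WT + IgG and 1454, 563, 517 and 459.7 in IL-38 KO + IgG. Each group overlapped its control. The antibody estimate of 0.97 ± 0.65 (SE, adjusted p = 0.593) became 0.19 (adjusted p = 0.888) without isotype control 5, and the knockout estimate was -0.15 ± 0.31 (SE, adjusted p = 0.871).

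The Slit ligands showed the same low tumor. Slit3 (ENSMUSG00000056427), a Robo ligand known from diaphragm and heart development, was at 62.3, 25.7, 54.3, 40.5 and 3.81 normalized counts in isotype control, and ranged from 19.6 to 102 (median 43.0) in anti-IL-38. It was at 52.8, 33.9, 72.5 and 73.4 in WT + IgG and 91.7, 43.2, 53.6 and 80.4 in IL-38 KO + IgG. Its antibody estimate of 0.63 ± 0.61 (SE, adjusted p = 0.714) became -0.01 without isotype control 5. Slit2 (ENSMUSG00000031558), the ligand best known for repelling axons at the midline, was at 127, 100.2, 81.1, 150.2 and 48.6 in isotype control, and ranged from 72.8 to 191 (median 145) in anti-IL-38. It was at 179, 128, 138 and 224 in WT + IgG and 118, 199, 142 and 210.1 in IL-38 KO + IgG, where the knockout estimate was -0.01 ± 0.24 (SE, adjusted p = 0.994). For both Slits the groups overlapped in each experiment.

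All 3 Robo receptors overlapped between the antibody groups. Robo1 (ENSMUSG00000022883), a receptor of Slit2 that is also expressed in mammary epithelium, was at 16.1, 57.9, 31.2, 65.4 and 84.8 in isotype control, and ranged from 10.3 to 97.0 (median 47.4) in anti-IL-38. It was at 32.9, 18.8, 22.4 and 18.3 in WT + IgG and 33.7, 26.1, 40.0 and 94.5 in IL-38 KO + IgG, so that 3 of 4 KO libraries exceeded all WT libraries. Robo2 (ENSMUSG00000052516) was at 6.61, 6.44, 18.7, 12.9 and 43.8 in isotype control and ranged from 7.60 to 58.5 (median 19.2) in anti-IL-38, with 1 high library in each group. It was at 35.9, 23.6, 13.4 and 29.6 in WT + IgG and 29.9, 14.4, 9.82 and 24.0 in IL-38 KO + IgG. Robo4 (ENSMUSG00000032125), the Robo receptor of endothelial cells, was at 40.6, 67.1, 19.6, 87.5 and 25.7 in isotype control, and ranged from 31.7 to 91.9 (median 45.2) in anti-IL-38. It was at 53.8, 65.0, 61.8 and 80.5 in WT + IgG and 72.0, 63.0, 72.5 and 77.6 in IL-38 KO + IgG, and its groups overlapped in both experiments.

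**Figure D2:**
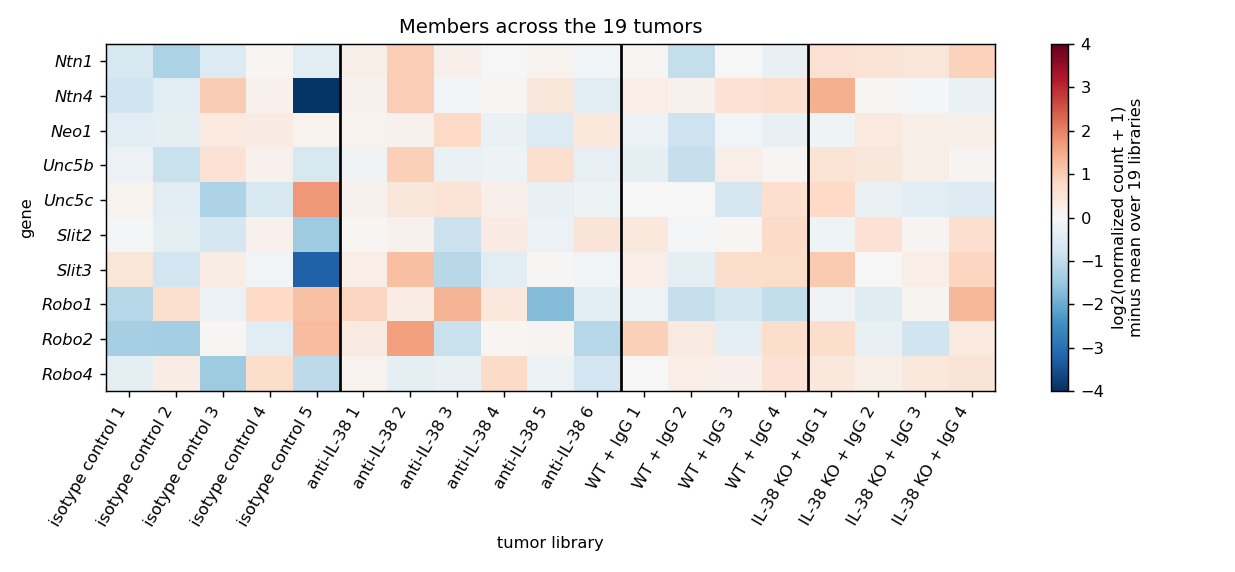
Each cell gives log2(normalized count + 1) of a member in a tumor library minus the mean of that gene over the 19 libraries, red above and blue below the mean, with black lines between the 4 groups. Ntn1 is above the highest control in 8 of the 10 libraries with IL-38 inhibited, and isotype control 5 holds the lowest values of Ntn4 and Slit3 and the highest of Unc5c.

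With the antibody alone, none of the other 9 members passed an adjusted p of 0.05 in limma, where 0% of 16002 genes passed. At an unadjusted p under 0.05 it was 0 of 9 against 10.5% of all genes, and the groups overlapped for each of the 10 members, against 1.04% of genes without overlap. edgeR and DESeq2 called none of the 9 either, against 0% and 0.469% of genes. The largest estimates after Ntn4 were those of Slit3, at 0.63 ± 0.61 (SE, adjusted p = 0.714), and Slit2, at 0.49 ± 0.30 (SE, adjusted p = 0.566). Robo1 was the only member below 0, at -0.12 ± 0.54 (SE, adjusted p = 0.950), and came to 0.11 without isotype control 5. The others were at 0.39 for Robo2, 0.31 for Unc5b, 0.25 for Robo4, 0.24 for Unc5c and 0.10 for Neo1, with adjusted p-values of 0.709 to 0.893. This order rested on isotype control 5, without which Slit2 was at 0.25, and Robo2 and Unc5c had the largest estimates, at 0.79 and 0.69.

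In the knockout, 3 of the other 9 members had an unadjusted p under 0.05, where 12.1% of all genes did, and none passed after adjustment over 16563 genes, of which 0.00604% passed. Neo1 was higher in KO by 0.55 ± 0.18 (SE, adjusted p = 0.306), Unc5b by 0.60 ± 0.24 (SE, adjusted p = 0.360) and Robo1 by 0.90 ± 0.41 (SE, adjusted p = 0.408) on the log2 scale. Mean normalized counts of Robo1 were 48.6 ± 31.1 in KO and 23.1 ± 6.75 in WT (SD, n = 4 each), and without IL-38 KO + IgG 4, the library with the highest value, its estimate was 0.52 (adjusted p = 0.546). edgeR and DESeq2 called none of the 9, against 0% and 1.8% of genes. Only Ntn1 among the 10 had groups without overlap, as 7.06% of all genes did. Robo2, at -0.41 ± 0.44 (SE, adjusted p = 0.726), and Ntn4 had estimates below 0, as did Slit2 and Unc5c (-0.11), while Slit3 and Robo4 were at 0.21 and 0.14. Beside these values, 8 of 9 basal, 7 of 7 macrophage and 5 of 5 adipocyte markers were lower in KO (median log2 differences -0.43, -0.47 and -1.11), and 6 of 7 mural and 4 of 4 muscle markers were higher (0.28 and 2.56). T cell markers, at low levels, were lower in 5 of 6 (median -0.59) and γδ T cell markers in 2 of 3 tested (median -0.50). None passed an adjusted p of 0.05, and their part in the members' values was not tested.

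None of the 9 members other than Ntn1 passed the test of the antibody effect against the knockout effect in limma, where 0.00612% of 16352 genes passed. At an unadjusted p under 0.05 it was 0 of 9 against 7.67% of genes, and edgeR and DESeq2 called 0 of 9 against 0% and 0.0612%. The estimates farthest apart were those of Ntn4, at 1.12 ± 0.87 (SE, adjusted p = 0.783), and Robo1, at -1.02 ± 0.76 (SE, adjusted p = 0.779). Without isotype control 5 that of Ntn4 was 0.34 and that of Robo2, at 0.80 with all libraries, was 1.20, and without IL-38 KO + IgG 4 that of Robo1 was -0.65.

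**Figure D3:**
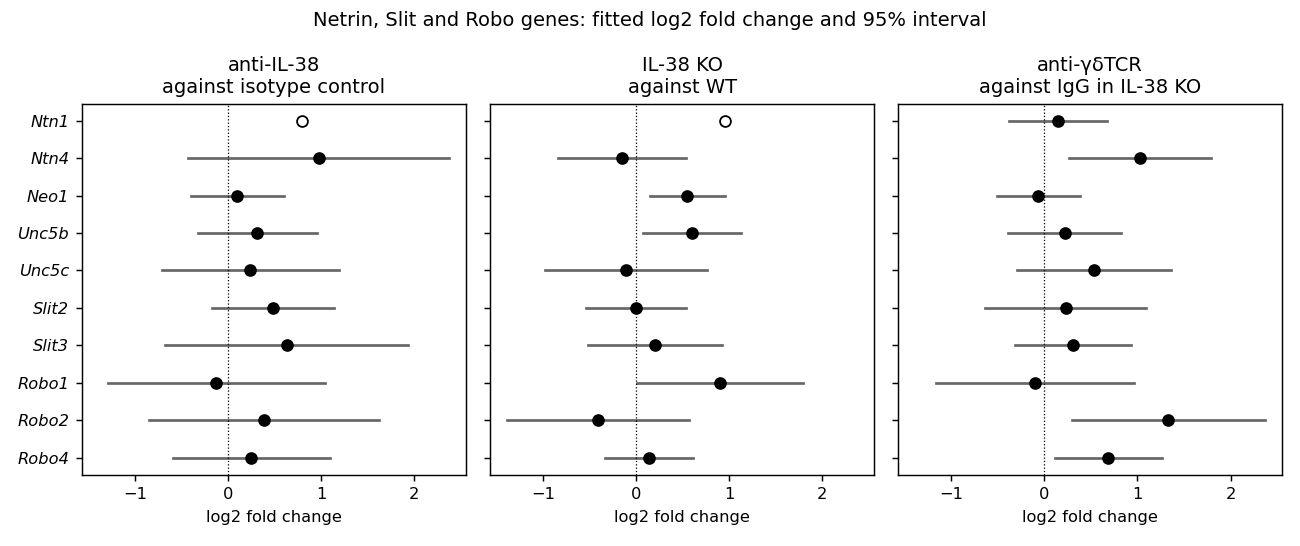
Fitted log2 fold change of each member (points) with its 95% interval (lines) for the antibody, the knockout and γδ TCR blockade in IL-38 KO mice; open points mark Ntn1 in both comparisons that its choice used, drawn without an interval. Intervals leave 0 out for Neo1, Unc5b and, barely, Robo1 in the knockout and for Ntn4, Robo2 and Robo4 under γδ TCR blockade, before adjustment for all genes tested. The interval of Ntn1 under blockade is a description, since its controls are among the values for which Ntn1 was chosen.

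Libraries with the γδ TCR blocked were compared with IgG libraries within IL-38 KO mice. This comparison shares its 4 IgG libraries with the knockout comparison, so values of both are not independent. The paper describes the antibody as one that blocks receptor signaling and does not deplete the cells. No library is from WT mice with blockade, so whether effects of IL-38 loss need γδ T cells was not tested. The treated libraries are also among the 5 with the fewest reads. None of the 9 members other than Ntn1 passed an adjusted p of 0.05 in limma, where 0% of 16481 genes passed. At an unadjusted p under 0.05 it was 3 of 9, against 21.7% of all genes. edgeR and DESeq2 called 0 of 9, against 0% and 6.25% of genes.

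Robo2, the receptor known from kidney and neuronal development, had the largest estimate. Its normalized counts in the table of 8 were 22.5, 10.9, 7.58 and 18.8 in IL-38 KO + IgG libraries 1 to 4 and 26.2, 75.5, 32.6 and 26.4 in IL-38 KO + anti-γδTCR libraries 1 to 4. All 4 treated libraries lay above all 4 IgG libraries, as in 9.54% of all genes the groups did not overlap, and on the CPM scale they overlapped. The log2 difference was 1.33 ± 0.47 (SE, adjusted p = 0.126), with a 95% interval of 0.30 to 2.37. Library 2 of the treated group was high, and without it the difference was 0.99 (adjusted p = 0.295). Without IL-38 KO + IgG 4 the difference was 1.47 (adjusted p = 0.0732).

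Ntn4 was at 1091, 427, 399 and 360.0 in IL-38 KO + IgG and 986, 1452, 709 and 1145 in IL-38 KO + anti-γδTCR. Its groups overlapped through IL-38 KO + IgG 1, the highest of the controls. The log2 difference was 1.03 ± 0.35 (SE, adjusted p = 0.115), and 0.86 (adjusted p = 0.136) without IL-38 KO + IgG 4. Robo4 was at 54.1, 47.8, 56.0 and 60.7 without blockade and 114, 94.99, 56.1 and 100.1 with it, and 3 of the 4 treated libraries exceeded all controls. Its log2 difference was 0.69 ± 0.26 (SE, adjusted p = 0.150), and 0.74 (adjusted p = 0.120) without that library.

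**Figure D4:**
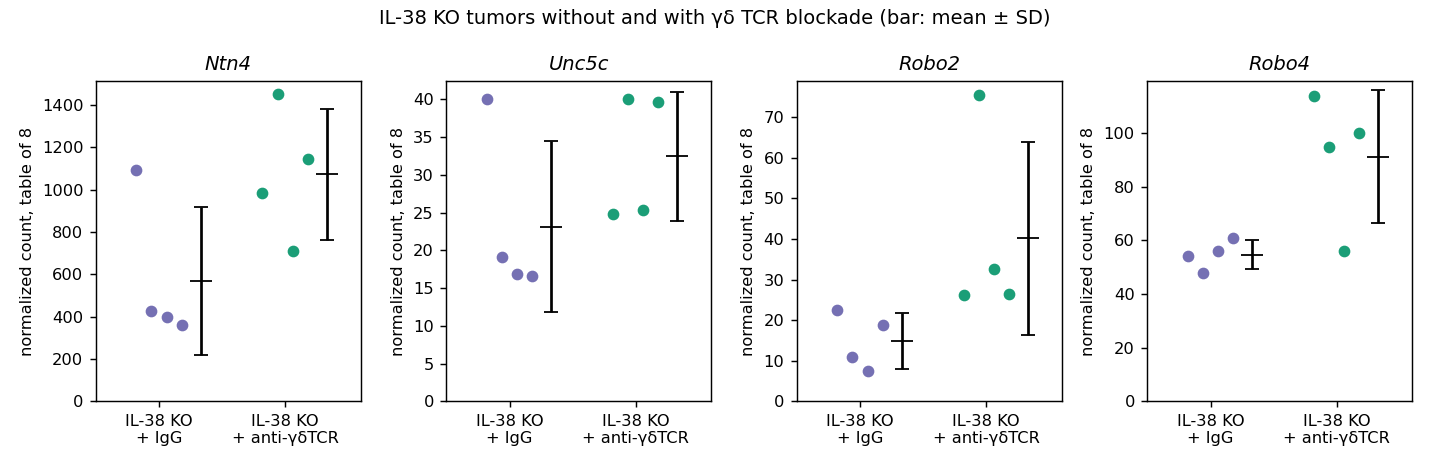
Normalized counts in the table of 8 libraries of Ntn4, Unc5c, Robo2 and Robo4 in IL-38 KO tumors with IgG or with the anti-γδTCR antibody, 1 point per library, with the mean ± SD of each group beside the points. The treated libraries lie above all controls for Robo2, while for Ntn4 and Unc5c 1 high control overlaps them and for Robo4 1 treated library lies among the controls.

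Ntn1 was at 179, 171, 167 and 233 without blockade and 140.0, 293, 183 and 238 with it, so the treated libraries lay on both sides of the controls. Its log2 difference was 0.14 ± 0.24 (SE). The controls here are among the values for which Ntn1 was chosen, so this is a description without a test. The remaining members gave log2 differences of 0.53 ± 0.37 (SE, adjusted p = 0.457) for Unc5c, 0.31 ± 0.28 (SE, adjusted p = 0.577) for Slit3, 0.23 ± 0.39 (SE, adjusted p = 0.788) for Slit2 and 0.22 ± 0.27 (SE, adjusted p = 0.692) for Unc5b. Neo1 was at -0.06 ± 0.20 (SE, adjusted p = 0.892) and Robo1 at -0.10 ± 0.48 (SE, adjusted p = 0.932), and Robo1 came to 0.29 without IL-38 KO + IgG 4.

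Marker lists leaned in this comparison too, and their part in the members' differences was not tested. All 9 basal epithelial markers were higher with blockade (median log2 difference 0.67), and their summed level was 336 to 608 CPM in IL-38 KO + IgG and 349.6 to 1069 CPM with blockade. Macrophage markers were lower in 6 of 7 (median -0.96), at 853 to 2095 CPM and 655 to 1064 CPM in sum. Of 13 endothelial markers 8 were higher (median 0.11), at 199 to 258 and 166 to 308 CPM. γδ T cell markers summed to 1.39 to 2.65 and 1.498 to 5.26 CPM, and of 3 tested 2 were higher with blockade. The 4 treated libraries were also among the 5 shallowest, with IL-38 KO + IgG 4. IL-38 KO + IgG 4 was the lowest of the 8 libraries for Ntn4 and lay between controls 1 and 2 for Robo2. For Robo4 it was the highest control and above treated library 3, and it was the highest control for Ntn1 and Robo1 as well.

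Some genes downstream of the receptors placed IL-38 KO + IgG 4 differently. The other netrin, Slit and Robo pathway genes are a list of 44, of which 43 are in the tables and 34 were tested under γδ TCR blockade. By limma none had an adjusted p under 0.05, and 8 higher and 2 lower had an unadjusted p under 0.05, against 21.7% of all genes. The 3 with the smallest p were Rac1, a small GTPase of the actin skeleton, Src, a tyrosine kinase, and Pak1, a kinase that Rac1 activates. Rac1 was at 1787, 2177, 2361 and 7739 in IL-38 KO + IgG libraries 1 to 4 and 7901, 7724, 10367 and 6699.8 with blockade. Src was at 110.3, 169, 122 and 453 and 463, 467, 597 and 392, and Pak1 at 348, 403, 517 and 1177 and 992, 1279.5, 1503 and 978. DESeq2 gave an adjusted p of 0.0452 for Rac1. IL-38 KO + IgG 4 lay with the treated libraries, not with its own group, for all 3. By limma their log2 differences were 1.47 ± 0.40 (SE, adjusted p = 0.0699) for Rac1, 1.40 ± 0.39 (SE, adjusted p = 0.0722) for Src and 1.11 ± 0.34 (SE, adjusted p = 0.0900) for Pak1. Without that library they were 1.95, 1.84 and 1.48, a description, since it was the control most like the treated libraries for these genes. Of the 8 libraries of this comparison, those high for these 3 genes are the 5 with the fewest reads and the largest share of Gm42418. With all 8 libraries the part of this in the difference was not tested. Without IL-38 KO + IgG 4, blockade and this split of libraries coincide, so their parts cannot be told apart. In the table of 19, IL-38 KO + IgG 4 was the highest library for Rac1 and Src. For Pak1, at 1503 there, it lay below isotype control 3 (1805), a deeper library.

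With IL-38 inhibited, 33 genes of the pathway list were tested and none passed an adjusted p of 0.05. Of them 20 were higher and 13 lower, 5 and 1 with an unadjusted p under 0.05 (10.5% of all genes), and the median log2 difference was 0.03. The smallest p belonged to Fyn, a Src family kinase that binds netrin receptors, at 0.37 ± 0.11 (SE, adjusted p = 0.3004), Unc5a, another UNC5 receptor, at 1.15 ± 0.43 (SE, adjusted p = 0.374), and Myo9b, a myosin that Robo1 can bind, at -0.24 ± 0.09 (SE, adjusted p = 0.380). Unc5a was at 0.944, 1.84, 4.45, 2.76 and 3.81 normalized counts in isotype control and ranged from 2.07 to 18.5 (median 8.46) in anti-IL-38. It was at 8.96, 3.77, 11.6 and 10.2 in WT + IgG and 17.8, 23.4, 17.4 and 14.1 in IL-38 KO + IgG, so that 9 of 10 inhibited libraries exceeded the median of the controls, and all 4 KO libraries all 4 WT libraries, at a low level. In the table of 8 it was at 13.3, 17.7, 13.4 and 11.04 without γδ TCR blockade and 7.85, 4.58, 5.43 and 24.2 with it.

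In the antibody comparison alone the same 3 genes had the smallest p of the list, at 1.31 ± 0.56 (SE, adjusted p = 0.451) for Unc5a, -0.24 ± 0.12 (SE, adjusted p = 0.478) for Myo9b and 0.31 ± 0.16 (SE, adjusted p = 0.490) for Fyn. In the knockout they were Rgmb, at 1.09 ± 0.37 (SE, adjusted p = 0.314), Fyn, at 0.45 ± 0.18 (SE, adjusted p = 0.348), and Rgma, at 0.46 ± 0.18 (SE, adjusted p = 0.348). Rgma and Rgmb encode repulsive guidance molecules, which are ligands of neogenin. Of 33 genes 6 higher and 0 lower had an unadjusted p under 0.05 in the knockout, where 12.1% of all genes did, and of 34 genes 1 higher and 0 lower in the antibody comparison, where 10.5% did. Between the antibody and the knockout effect the smallest p were those of Nck1, at -0.51 ± 0.20 (SE, adjusted p = 0.590), Elmo1, at -0.63 ± 0.30 (SE, adjusted p = 0.650), and Usp33, at -0.27 ± 0.21 (SE, adjusted p = 0.779). The netrin receptor gene Dcc and the genes Ntn5, Ntng2, Unc5d, Robo3, Draxin, Nell2 and Trim9 fell below the filter in every comparison.

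Semaphorins, plexins, neuropilins, ephrins and Eph receptors, the other large guidance families, were counted beside the members. Of 50 genes 49 were tested with IL-38 inhibited, where 37 were higher and 12 lower with a median log2 difference of 0.26, next to 0.30 for the 9 members other than Ntn1. None of the 49 passed an adjusted p of 0.05, and 8 higher and 1 lower had an unadjusted p under 0.05, against 10.5% of all genes.

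Most epithelial and stromal markers had estimates above 0 in tumors with IL-38 inhibited. All 10 luminal markers were higher, 4 with an unadjusted p under 0.05 (10.5% of all genes), and their median log2 difference was 0.29. All 7 mural markers, of the cells that wrap vessels, were higher (median 0.50), as were 10 of 13 endothelial (median 0.17), 9 of 10 fibroblast (median 0.25) and 6 of 9 basal markers (median 0.08). All 7 macrophage markers were lower (median -0.27). Medians were 0.12 for T cell, -0.13 for γδ T cell, -0.51 for adipocyte, 1.20 for muscle and 0.23 for Schwann cell markers. No marker passed an adjusted p of 0.05 in limma. Summed mural levels were 95.8 to 148 CPM in isotype control, 119 to 258 in anti-IL-38, 113 to 170.5 in WT + IgG and 160.2 to 195 in IL-38 KO + IgG. The part of such shifts in the levels of Ntn1 was not tested.

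Each member was set beside 5 marker scores (the mean z score of a list) over the 19 libraries, which share their normalization and tumor makeup. Of the 50 relations (10 members, 5 lists), 7 passed an adjusted permutation p of 0.05 by Pearson's r, and 2 of these by Spearman's rho as well. Both counts include Ntn1 with the mural score, which is a description, and the adjustment covers the relations of Ntn1 too. Slit2 followed the fibroblast score with r = 0.83 (p = 5e-05, adjusted 0.0025) and rho = 0.75 (p = 0.00038, adjusted 0.0187). It kept r = 0.60 without the 2 libraries farthest from the median score, anti-IL-38 3 and isotype control 5, 0.81 within the neutralization experiment and 0.62 within the genotype experiment. The genes most like Slit2 were Srpx (r = 0.85), Lum (0.83) and Col5a2 (0.83), of which Lum is in the fibroblast list.

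Ntn1 followed the mural score with r = 0.70 and rho = 0.72, values that include the group difference for which Ntn1 was chosen and so are a description. Without WT + IgG 1 and isotype control 5 it was 0.77, and 0.75 and 0.70 within the neutralization and the genotype experiment. After the 4 group means were removed it was 0.47 and did not pass (adjusted permutation p = 0.140).

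The other 5 relations passed by r alone. Slit3 and Ntn4 followed the fibroblast score with r = 0.77 and 0.67 (rho = 0.57 and 0.41), which fell to 0.43 and 0.41 without the 2 farthest libraries. Ntn4 followed the luminal score with r = 0.68 (rho = 0.39), which fell to 0.29. These 3 relations rest on isotype control 5 and 1 further library each. Within the genotype experiment r was 0.44 for Slit3 and 0.05 for Ntn4 with the fibroblast score, and -0.23 for Ntn4 with the luminal score. Slit3 with the basal score gave r = 0.65 (rho = 0.55), and 0.69 without the 2 farthest, while within the genotype experiment it was 0.19. Unc5b with the luminal score gave r = 0.60 (rho = 0.57), and 0.55 without the 2 farthest. Robo4 with the endothelial score gave r = 0.58 and rho = 0.59 (adjusted permutation p = 0.055 and 0.0818). Its r was 0.39 without isotype controls 4 and 5, and 0.65 after the group means were removed. The adjusted permutation p of the last value, 0.0277, is too small, since the shuffles did not keep to groups.

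**Figure D5:**
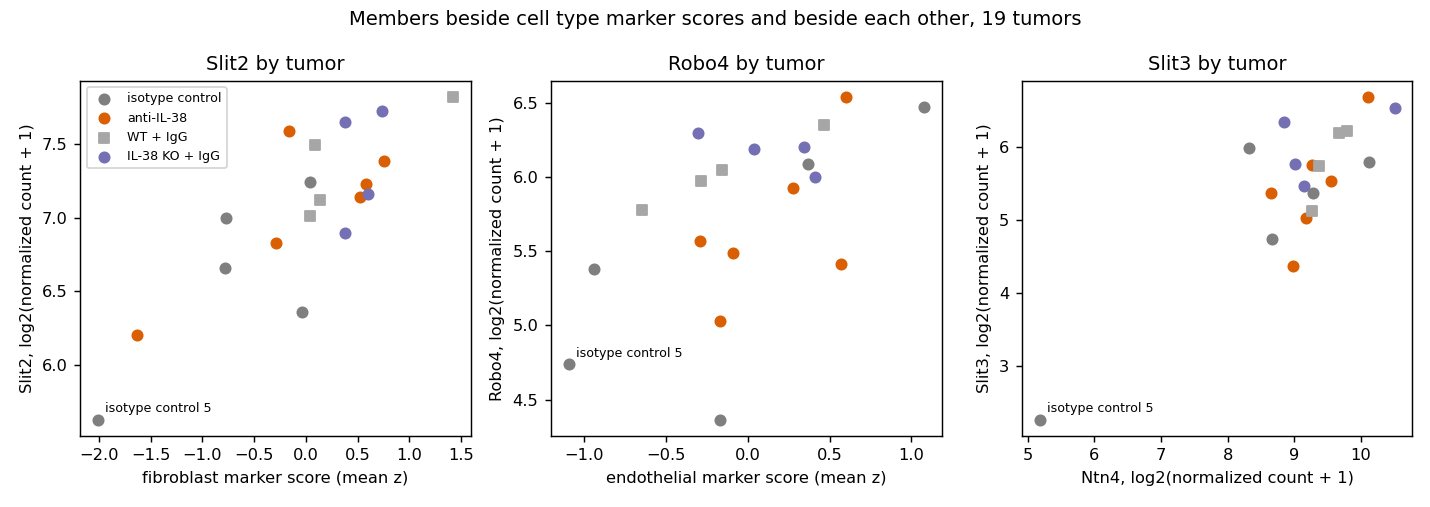
Log2(normalized count + 1) of Slit2 against the fibroblast marker score, of Robo4 against the endothelial marker score and of Slit3 against Ntn4, 1 point per tumor of the 19, colored by group. Isotype control 5 is the lowest point of Slit2 and Slit3, far from the other 18 for Slit3 and Ntn4.

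Between members, 5 of 45 pairs passed an adjusted permutation p of 0.05 by Pearson's r and 0 of them also by Spearman's rho. Among the 5 is Ntn1 with Unc5b, which is a description, and the adjustment covers the pairs of Ntn1 too. Ntn4 and Slit3 had r = 0.85 (p = 0.00076, adjusted 0.0250) and rho = 0.58 (p = 0.0105, adjusted 0.118). Without isotype control 5 this was r = 0.52, and 0.42 without IL-38 KO + IgG 1 as well, so the relation rests largely on these tumors. Ntn1 and Unc5b, a ligand and its receptor, had r = 0.69 and rho = 0.61, again with the group difference of Ntn1 in them. It was 0.50 without WT + IgG 2 and isotype control 2, and 0.65 and 0.77 within the neutralization and the genotype experiment. With the group means removed it was 0.63 (adjusted permutation p = 0.0386, too small since the shuffles did not keep to groups). Slit3 went with Unc5b at r = 0.60 and with Slit2 at 0.69, and Ntn4 with Unc5b at 0.57, of which the pair of Slits fell to 0.17 without the 2 farthest libraries. Isotype control 5 moved another pair the other way. Ntn4 and Robo2 had r = 0.04 and rho = 0.46 with all libraries, and r = 0.72 without that tumor (adjusted permutation p = 0.0239).

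The genes most like each of the other members over the 19 libraries were picked by Pearson's r alone. They were Vwa7, Pdzk1ip1 and Tgfb3 for Ntn4 (r = 0.95, 0.93 and 0.93) and Muc15, Tox and Gata3 for Slit3 (0.94, 0.90 and 0.90), where Gata3 encodes the luminal transcription factor of the mammary gland. For Unc5b they were Igfbp3, Slc44a1 and Ryk (0.88, 0.87 and 0.87), for Neo1 P2rx7, Celsr2 and Slc12a9 (0.86, 0.86 and 0.85) and for Unc5c Gm37519, Gria4 and Gprasp2 (0.73, 0.71 and 0.68). Robo1 had Acsl3 and Slc9a7 (0.80 and 0.79), Robo2 had Col7a1, Hs6st2 and Dkk3 (0.86, 0.80 and 0.75) and Robo4 had Btnl9, Lgi2 and Gm38142 (0.85, 0.85 and 0.82). Col7a1 encodes the collagen of anchoring fibrils and Btnl9 is known from endothelial cells.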

How the data were processed

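RNA of 23 PyMT mammary tumors was sequenced from transcript 3′ ends (QuantSeq, 500 ng RNA, 75 cycles). The authors processed the reads with a QuantSeq pipeline of BlueBee Genomics; the submitters' processing notes list STAR, HTSeq, DESeq2 and GRCm39, without tool versions. The deposited tables hold a signal per gene, which is the read count divided by 1 size factor per library. Whole reads were recovered from them (100% of values within 0.0001%). Of 47643 identifiers, 47224 were matched to symbols. Libraries held 6.27 to 15.9 M reads, so 3 reads, the floor of detection by counting error alone, are 0.189 to 0.478 CPM.

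Groups were taken from the labels. Each comparison was fitted within 1 table with limma 3.58.1 (R 4.3.3, empirical Bayes with trend, two-sided) on log2(normalized count + 1), for genes with a mean of at least 5, with Benjamini-Hochberg adjustment over all genes tested and a threshold of 0.05. Fold changes on this scale understate those of low genes. Correlations over 19 libraries used two-sided permutation tests with 100000 resamples. Where the 4 group means were removed, all 19 libraries were still shuffled freely, so those p-values are too small and are a description. edgeR 4.0.16 and DESeq2 1.42.0 on recovered reads, TMM scaling, other pseudocounts and filters, a replicate block, a term for the experiment and leaving out each library were alternatives. Counts were simulated with 200 genes changed by a log2 size of 2. Of these, limma recovered 200 in the comparison of 10 against 9 libraries (16352 genes, 12 false calls). It recovered 184 for the difference between the antibody and knockout effects (16352 genes, 8 false calls). Recovery at smaller sizes, where all estimates of the members lie, was not tested. Recovery at the level and spread of each member was not tested either. In isotype control these were, for example, 499 ± 404 normalized counts (SD, n = 5) for Ntn4, 17.7 ± 15.5 for Robo2 and 726 ± 186 for Neo1.

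The 10 members and all gene lists were chosen with earlier results of these data known. Besides the members, the text names the 3 pathway genes with the smallest p in each comparison and, by Pearson's r, the 5 genes most like Ntn1 and 3 most like each other member, of which 1 is not reported here. No 2 libraries of a group agreed within sampling noise (chi-square per degree of freedom 17.1 to 138).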

Additional observations from a re-analysis of the deposited data

Results flagged for a closer look

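In groups of 4 to 6 libraries, a library was marked where its gap to the nearest other took a larger part of the group's range than Dixon's 95% value allows, which chance does in about 1 of 20 groups. Of 50 sets (10 members in 5 groups), 6 were marked. Ntn1 was at 23.75 CPM in anti-IL-38 2, next to 14.5 CPM in the library below it. Robo2 was high in the same tumor, at 4.475 CPM next to 1.86 CPM. Ntn4 was at 123.1 CPM in IL-38 KO + IgG 1, next to 48.2 CPM, and Unc5c was at 4.517 CPM in that tumor, next to 2.16 CPM. Unc5c was at 8.04 CPM in isotype control 5, next to 2.80 CPM. Robo2 was at 7.708 CPM in IL-38 KO + anti-γδTCR 2, next to 2.87 CPM.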

How the results depend on the processing

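None of the 9 members other than Ntn1 passed an adjusted p of 0.05 in any comparison under any alternative run. The estimate of Ntn1 stayed between 0.75 and 0.91 over both experiments when single libraries were left out, 0.63 and 0.96 for the antibody, and 0.74 and 1.07 for the knockout. With a replicate block, 0 genes were called over both experiments, 1 for the antibody, 0 for the knockout and 0 for γδ TCR blockade, and no member. Same-numbered libraries did not deviate together (correlations -0.112 to 0.0684 for the antibody, 0.0229 to 0.0746 for the knockout and -0.169 to 0.0249 for γδ TCR blockade), so the numbers were not taken as pairs.

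Counts of all genes called depended on the tool and on single libraries. Over both experiments limma called 0, edgeR 1, DESeq2 70 and limma with a term for the experiment 1, while single libraries left out gave 0 to 23, the most without isotype control 3. For the antibody these were 0 in limma and edgeR and 75 in DESeq2, with 0 to 6 (the most without isotype control 3). For the knockout limma called 1, edgeR 0 and DESeq2 298, with 0 to 7 (the most without WT + IgG 3 or IL-38 KO + IgG 4). For γδ TCR blockade limma and edgeR called 0 and DESeq2 1030, with 0 to 2357, the most without IL-38 KO + IgG 4. For the difference between antibody and knockout effects limma called 1, edgeR 0 and DESeq2 10, with 0 to 2. The cause was not tested.

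Small estimates changed sign. With edgeR and DESeq2, Unc5c was at -0.10 and -0.10 over both experiments, -0.11 and -0.11 for the antibody and -0.032 and -0.054 for the difference between effects. In the knockout Ntn4 was at 0.016 and 0.0097, and Slit2 at 0.012 and 0.0057 (0.005 with TMM). Leaving out single libraries gave, over both experiments, -0.14 to 0.20 for Robo2 and -0.052 to 0.32 for Unc5c. For the antibody the ranges were -0.034 to 0.23 for Neo1, -0.046 to 0.69 for Unc5c, -0.0091 to 0.52 for Robo4, -0.47 to 0.25 for Robo1 and -0.012 to 0.92 for Slit3. For the knockout they were -0.13 to 0.15 for Slit2, -0.026 to 0.39 for Slit3, -0.41 to 0.11 for Unc5c and -0.52 to 0.029 for Ntn4. For γδ TCR blockade they were -0.18 to 0.11 for Neo1, -0.33 to 0.29 for Robo1, -0.026 to 0.33 for Ntn1, -0.012 to 0.46 for Unc5b and -0.16 to 0.47 for Slit2. For the difference between effects they were -0.15 to 0.38 for Robo4, -0.32 to 0.063 for Ntn1 and -0.22 to 0.71 for Slit3. Relations of members with marker scores that passed numbered 7, with the descriptive one of Ntn1 and the mural score among them. After the group means were removed 5 passed, by p-values that are too small because the shuffles did not keep to groups. Of these, 3 were among the 7 (Slit2 and Slit3 with fibroblast, Ntn4 with luminal). The other 2 were not (Robo4 with endothelial, and Unc5b with basal at r = 0.64, adjusted permutation p = 0.0277). With the group means kept, Unc5b with basal had rho = 0.43, r = 0.33 without the 2 farthest libraries and r = -0.27 within the genotype experiment. Correlations between pairs of members and their values without isotype control 5 or with group means removed were added after seeing the data. Unc5c, Slit3, Robo1 and Robo2 had as few as 4 to 14 reads in a library, which limits the precision of their values.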
